A study of Mus musculus with 9 samples.

Results

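The annexins were followed in the liver of STAM mice, a model in which newborn males given low-dose streptozotocin and then fed a high-fat diet develop diabetes, steatohepatitis and liver tumors. Members were taken as every array probe whose transcript accession belongs to Anxa1, Anxa2, Anxa3, Anxa4, Anxa5, Anxa6, Anxa7, Anxa11 or Anxa13, which gave 12 probes of 9 genes out of 55681 probes and 20972 named genes. All 12 probes were well above background on all 9 arrays and all entered the test. Total RNA from whole liver was hybridised to 1-color Agilent arrays, with 3 untreated STAM mice (STAM-NON), 3 STAM mice injected with insulin (STAM-INS) and 3 Normal mice, all males 20 weeks of age. Per the study's methods the STAM mice were C57BL/6J animals fed the high-fat diet from weaning, STAM-INS mice received insulin glargine by subcutaneous injection, and Normal mice were lean mice on normal diet without streptozotocin. STAM-NON and STAM-INS thus share streptozotocin and the diet and differ in insulin, whereas Normal mice differ from both in streptozotocin and in diet, which cannot be told apart here. The sources used here do not say whether tumor nodules were part of the liver taken for RNA.

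Annexins are proteins that bind acidic phospholipids of membranes when calcium rises, through a conserved core of repeats, while their varied amino-terminal tails bind partners such as S100 proteins. They take part in membrane trafficking, exocytosis, repair of torn membranes, coagulation and the resolution of inflammation. In healthy liver the hepatocytes, bile duct cells, endothelium, stellate cells and resident macrophages differ in which annexins they make, and Anxa1, Anxa2 and Anxa5 are well known from injured, fibrotic and neoplastic liver.

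Levels are given as centered log2 signal, which is log2 of the spot's background-subtracted intensity minus the 75th percentile of its array, so that 0 is the level of the 75th percentile spot. A difference of 1 on this scale is a 2-fold difference. Levels of different genes come from different probes and were not set against each other. Between 46.2% and 65.0% of spots were well above background per array and no spot was saturated. The 6 hepatocyte markers (Alb, Ttr, Apoa1, Cps1, Serpina1c and Cyp2e1) were well above background on every array. All STAM arrays lay on 1 slide and all Normal arrays on another, so slide and the difference between STAM and Normal cannot be told apart, whereas STAM-NON and STAM-INS were compared within 1 slide. Within that slide, row 1 held all STAM-NON arrays and STAM-INS replicate 1, and row 2 held STAM-INS replicates 2 and 3. Slide row thus ran partly with insulin. Each array was a separate mouse, and with 3 mice a group the number of arrays limits the precision of every value. In bulk liver RNA a smaller share of a cell type and less RNA per cell cannot be told apart.

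STAM-NON was compared with Normal to ask which annexins differ in the untreated disease model. Anxa2 rose 4.37-fold in STAM-NON and was, on the brightest probe of each gene, the only member to pass the threshold of an adjusted p of 0.05, as 1 of 9 members, while 16.1% of the 26278 tested probes passed it (6.30% higher and 9.76% lower). Anxa1, Anxa3, Anxa5 and Anxa13 lay higher in every STAM-NON mouse than in every Normal mouse, by 2.0 to 3.65 times in the mean, without passing the threshold. Anxa4, Anxa6, Anxa7 and Anxa11 differed by 0.23 or less on the log2 scale. The median difference over the 9 members was 1.0, against -0.13 over all tested probes.

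**Figure D1:**
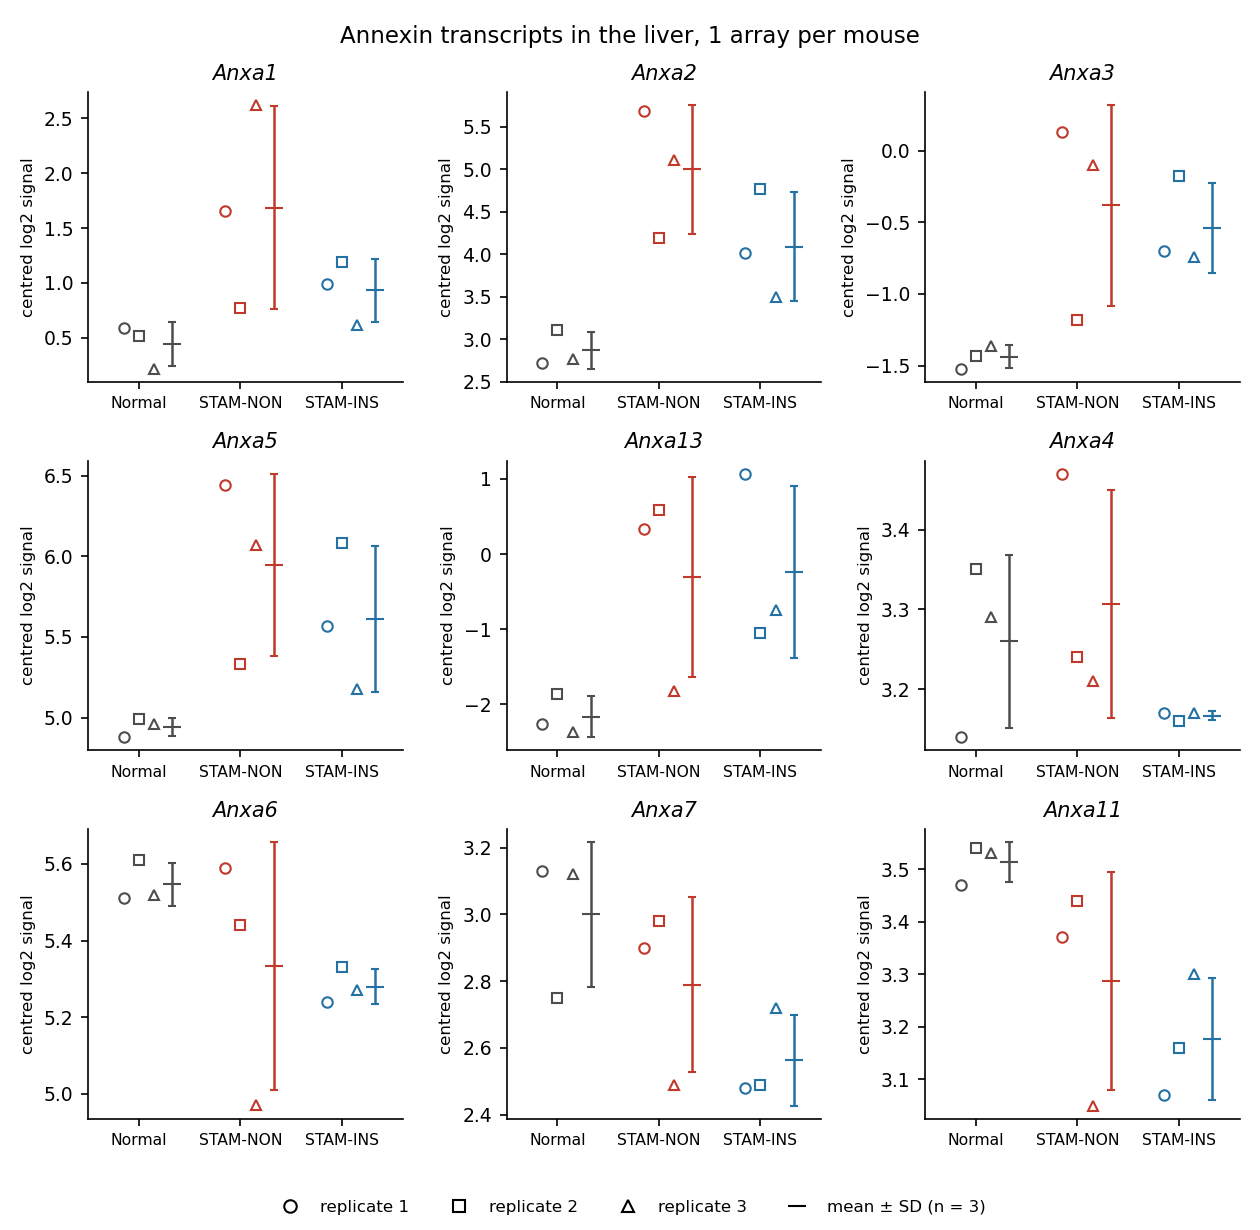
Centered log2 signal (y axis, a different range in each panel) of the 9 annexin genes in Normal, STAM-NON and STAM-INS livers; each symbol is 1 mouse and the bar beside it the mean with its SD (n = 3). For Anxa1, Anxa2, Anxa3, Anxa5 and Anxa13 all 6 STAM mice sit above the 3 Normal mice, and STAM-NON replicate 2 is the lowest STAM-NON mouse for the first 4 of these genes.

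Anxa2 forms a complex with S100a10 that binds plasminogen and its activator at the cell surface and organises membranes during exocytosis and endocytosis. Its centered log2 signal was 5.69, 4.19 and 5.11 in STAM-NON replicates 1, 2 and 3, 4.01, 4.77 and 3.49 in STAM-INS replicates 1, 2 and 3, and 2.72, 3.11 and 2.77 in Normal replicates 1, 2 and 3. Each of the 6 STAM mice was above each Normal mouse, whereas STAM-NON and STAM-INS overlapped. The STAM-NON mean was 5.0 ± 0.76, the STAM-INS mean 4.09 ± 0.65 and the Normal mean 2.87 ± 0.21 (SD, 3 mice per group). The STAM-NON difference from Normal was 2.13 (SE 0.42, 95% confidence interval 1.18 to 3.08), with an adjusted p of 0.0176 by limma with the Benjamini-Hochberg method. Without STAM-NON replicate 3 the difference was 2.07 (adjusted p = 0.0503), and without Normal replicate 1, 2 or 3 the adjusted p by limma was 0.0596, 0.050 and 0.0597. With no filter on dim probes the adjusted p by limma was 0.0761. With the row of the array on its slide as a block the difference was 2.24 (adjusted p = 0.254, limma). Row 1 held all STAM-NON arrays and STAM-INS replicate 1, and row 2 held STAM-INS replicates 2 and 3 and the Normal arrays. The row term thus rested on STAM-INS replicate 1 against STAM-INS replicates 2 and 3 alone. In this fit row cannot be told apart from differences between those mice.

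Anxa5 binds phosphatidylserine, the lipid that dying and activated cells expose, and shields it from the coagulation factors. Its signal was 6.44, 5.33 and 6.07 in STAM-NON replicates 1, 2 and 3, 5.57, 6.08 and 5.18 in STAM-INS replicates 1, 2 and 3, and 4.88, 4.99 and 4.96 in the Normal replicates. The Normal mice lay close together (SD 0.05) and below every STAM mouse, while the spread in STAM-NON was 10.2 times as large (SD 0.56). The difference of STAM-NON from Normal was 1.0 (SE 0.30, 95% confidence interval 0.31 to 1.69; adjusted p = 0.0545, limma).

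Anxa1 is induced by glucocorticoids and acts on formyl peptide receptors to limit the recruitment of neutrophils, the cells in which it is most abundant together with macrophages. Its brighter probe gave 1.66, 0.77 and 2.62 in STAM-NON replicates 1, 2 and 3, 0.99, 1.19 and 0.62 in STAM-INS replicates 1, 2 and 3, and 0.59, 0.52 and 0.22 in the Normal replicates. STAM-NON replicate 3 stood highest, and STAM-INS replicate 3 lay just above the highest Normal mouse. The difference of STAM-NON from Normal was 1.24 (SE 0.40, 95% confidence interval 0.32 to 2.17; adjusted p = 0.0682, limma). The dimmer Anxa1 probe put the mice in a like arrangement, from 0.53 in STAM-NON replicate 3 to -2.08 in Normal replicate 3, with a difference of 1.36 (adjusted p = 0.0603, limma). Without STAM-NON replicate 3 the difference of the brighter probe was 0.77 (adjusted p = 0.127, limma).

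Anxa3, a cytosolic annexin first described for bringing neutrophil granules together, had signals of 0.13, -1.18 and -0.10 in STAM-NON, -0.70, -0.18 and -0.74 in STAM-INS and -1.52, -1.43 and -1.36 in Normal, in the order of the replicate numbers. STAM-NON replicate 2 was only just above the Normal mice, and the other 5 STAM mice lay between -0.74 and 0.13. The difference of STAM-NON from Normal was 1.05 (SE 0.32, 95% confidence interval 0.32 to 1.78; adjusted p = 0.0556, limma). Leaving out STAM-NON replicate 2 brought Anxa1, Anxa3 and Anxa5 past the threshold beside Anxa2, with differences of 1.70 (adjusted p = 0.0160), 1.45 (0.00876) and 1.31 (0.0205) by limma. Over 19 alternative settings Anxa1 passed in 1, and Anxa3 and Anxa5 in 3 each. The lowest differences there were 0.75 for Anxa3 and 0.76 for Anxa5. The highest adjusted p by limma was 0.355 for Anxa3 and 0.417 for Anxa5.

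Anxa13, held to be the founder of the vertebrate annexins and known from epithelia of intestine and kidney, varied most between STAM mice. Its signal was 0.33, 0.59 and -1.83 in STAM-NON replicates 1, 2 and 3, 1.07, -1.05 and -0.74 in STAM-INS replicates 1, 2 and 3, and -2.27, -1.86 and -2.37 in the Normal replicates. STAM-NON replicate 3, the highest mouse for Anxa1, was the lowest STAM mouse here and only 0.03 above the highest Normal value. The difference of STAM-NON from Normal was 1.87 (SE 0.71, 95% confidence interval 0.24 to 3.49; adjusted p = 0.101, limma). Without STAM-NON replicate 3 it was 2.63 (adjusted p = 0.0421, limma). With the slide row as a block the difference was -0.09 (adjusted p = 0.974, limma). That row term rested on STAM-INS replicate 1 (1.07) against STAM-INS replicates 2 and 3 (-1.05 and -0.74) alone. Row thus cannot be told apart from the spread of these mice.

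**Figure D2:**
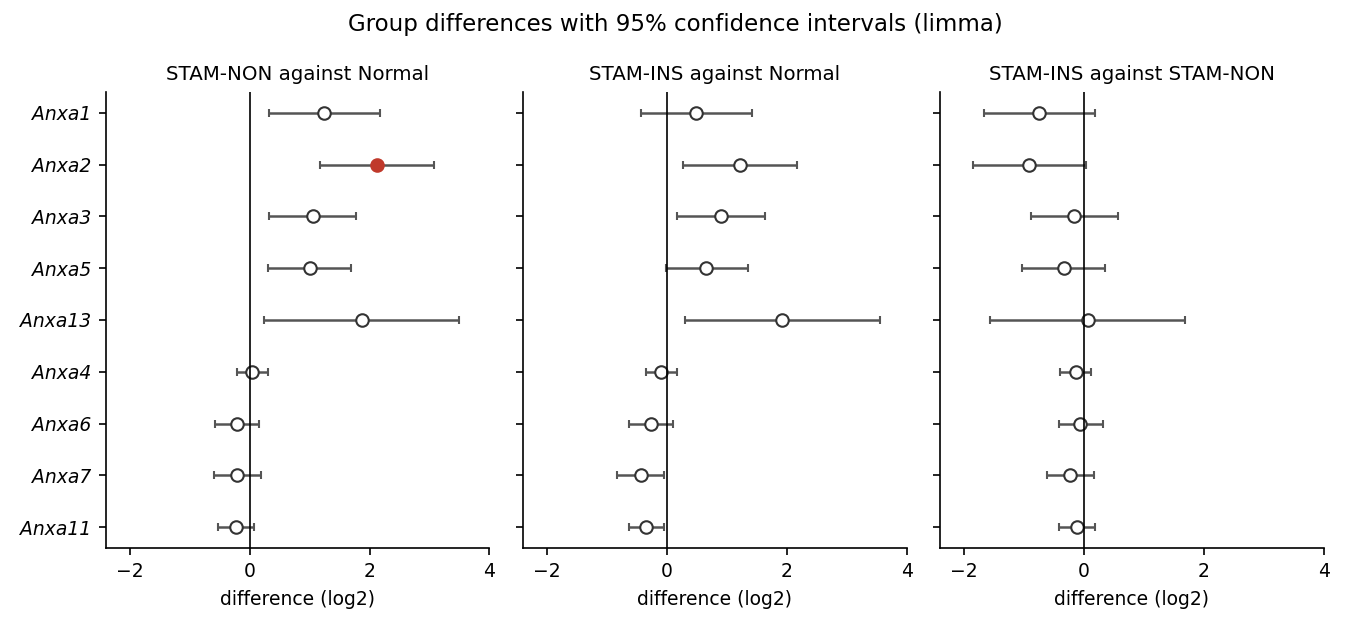
Difference of group means on the log2 scale (x axis) for each annexin (y axis) in the 3 comparisons, with 95% confidence intervals from limma; a filled point passed the threshold. Anxa2 in STAM-NON against Normal (2.13) is the single filled point, and the intervals of Anxa1, Anxa2, Anxa3, Anxa5 and Anxa13 lie above 0 there.

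The other members differed by 0.23 or less on the log2 scale between STAM-NON and Normal on their brightest probes. Anxa4, found in secretory epithelia, ranged from 3.21 to 3.47 in STAM-NON, from 3.16 to 3.17 in STAM-INS and from 3.14 to 3.35 in Normal, and STAM-NON and Normal overlapped (difference 0.04, 95% confidence interval -0.22 to 0.30). Anxa6, a large annexin with a doubled core that acts in endosomes and in cholesterol transport, ranged from 4.97 to 5.59 in STAM-NON, from 5.24 to 5.33 in STAM-INS and from 5.51 to 5.61 in Normal. Its difference between STAM-NON and Normal was -0.21 (95% confidence interval -0.58 to 0.16; adjusted p = 0.368, limma). Anxa7 (synexin), a membrane fusion protein of secretory granules, had a like difference on both of its probes, -0.21 (adjusted p = 0.393) and -0.23 (adjusted p = 0.356) by limma. In STAM-INS both Anxa7 probes lay below all Normal mice, by -0.44 (adjusted p = 0.116) and -0.48 (adjusted p = 0.0934) by limma, short of the threshold.

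Anxa11, which binds RNA granules and the calcium sensor Pdcd6, was the single member whose STAM-NON mice all lay below the Normal mice, as did 28.0% of tested probes. Its brighter probe gave 3.37, 3.44 and 3.05 in STAM-NON and 3.47, 3.54 and 3.53 in Normal, a difference of -0.23 (95% confidence interval -0.53 to 0.07; adjusted p = 0.244, limma). Its second, dim probe gave -3.02, -2.93 and -3.14 in STAM-NON and -2.47, -2.35 and -2.57 in Normal, and passed the threshold at -0.57 (adjusted p = 0.0423, limma). The probes thus had the same direction and differed in the call. Centered on the E1A spike-in probes, RNA added in equal amount to each labeling, the differences of Anxa6, Anxa7 and Anxa11 turned to 0.10, 0.10 and 0.08, under a scaling that moved the median of all tested probes from -0.13 to 0.17.

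The groups did not overlap, with STAM-NON higher, for 5 of 9 members (Anxa1, Anxa2, Anxa3, Anxa5 and Anxa13), and for 13.2% of tested probes. An exact two-sided permutation test of 3 mice against 3 cannot give a p below 0.1, and gave 0.1 for each of these 5 genes and for Anxa11. Averaged over the 9 members, the difference from the Normal mean was 1.07, 0.54 and 0.63 in STAM-NON replicates 1, 2 and 3 and 0.55, 0.55 and 0.25 in STAM-INS replicates 1, 2 and 3. STAM-NON replicate 1 had 6 members above the highest Normal mouse and every other STAM mouse had 5. The same count over all tested probes was not made for single mice, so these counts stand without a background.

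STAM-INS and STAM-NON were compared to ask whether insulin moved these transcripts in STAM liver. No member passed the threshold in this comparison by limma, in which 0.0913% of tested probes did (24 of 26278, with 2308 at an unadjusted p under 0.05, none of them an annexin's brightest probe). The means of 8 of 9 members were lower in STAM-INS, with a median difference of -0.16 against 0.03 over all tested probes. Of all 26278 tested probes, 14414 had a higher mean in STAM-INS. The members varied together in part, and the 95% confidence interval of each of them included 0. Anxa2 differed by -0.91 (SE 0.42, 95% confidence interval -1.86 to 0.04), with an unadjusted p of 0.0584 and an adjusted p of 0.581 by limma, and Anxa1 by -0.75 (95% confidence interval -1.67 to 0.18; adjusted p = 0.632, limma). For both genes the highest STAM-INS mouse lay above the lowest STAM-NON mouse, and both intervals include 0.

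The remaining intervals for insulin were -0.89 to 0.57 for Anxa3, -1.03 to 0.35 for Anxa5 and -1.57 to 1.68 for Anxa13, whose means differed by -0.16, -0.34 and 0.06. Anxa6, Anxa7 and Anxa11 differed by -0.06, -0.23 and -0.11. Anxa4 was the only member without overlap, at 3.17, 3.16 and 3.17 in STAM-INS against 3.47, 3.24 and 3.21 in STAM-NON, a difference of -0.14 (adjusted p = 0.776, limma), and 4.92% of tested probes were lower without overlap. The sign for Anxa13 turned to -0.70 without STAM-NON replicate 3 and to -0.59 without STAM-INS replicate 1.

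STAM-INS was set against Normal to see what remained different under insulin. No member passed the threshold by limma, against 13.9% of tested probes (5.16% higher and 8.72% lower; 3647 of 26278 in all, with 8530 at an unadjusted p under 0.05, among them Anxa2, Anxa3, Anxa7, Anxa11 and Anxa13). The same 5 genes were higher without overlap, as were 15.1% of tested probes, and Anxa6, Anxa7 and Anxa11 were lower without overlap, as were 29.0%. Anxa2 was 2.33-fold higher (difference 1.22, 95% confidence interval 0.27 to 2.17; adjusted p = 0.0833, limma), Anxa13 3.8-fold (1.92, 0.30 to 3.55; adjusted p = 0.103) and Anxa3 1.86-fold (0.90, 0.17 to 1.63; adjusted p = 0.0933). Anxa5 differed by 0.66 (adjusted p = 0.166) and Anxa1 by 0.49 (adjusted p = 0.424).

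Both STAM groups were set against the same 3 Normal mice, so their values are not independent of each other. Side by side, the difference from Normal for untreated and insulin-treated STAM mice was 2.13 and 1.22 for Anxa2, 1.24 and 0.49 for Anxa1, 1.0 and 0.66 for Anxa5, 1.05 and 0.90 for Anxa3 and 1.87 and 1.92 for Anxa13. In a fit of only the STAM-INS and Normal arrays, Anxa2 and Anxa3 passed the threshold (adjusted p = 0.0423 and 0.0180, limma). The lower members in STAM-INS were Anxa7 at -0.44 (adjusted p = 0.116), Anxa11 at -0.34 (adjusted p = 0.118) and Anxa6 at -0.27 (adjusted p = 0.276), by limma.

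**Figure D3:**
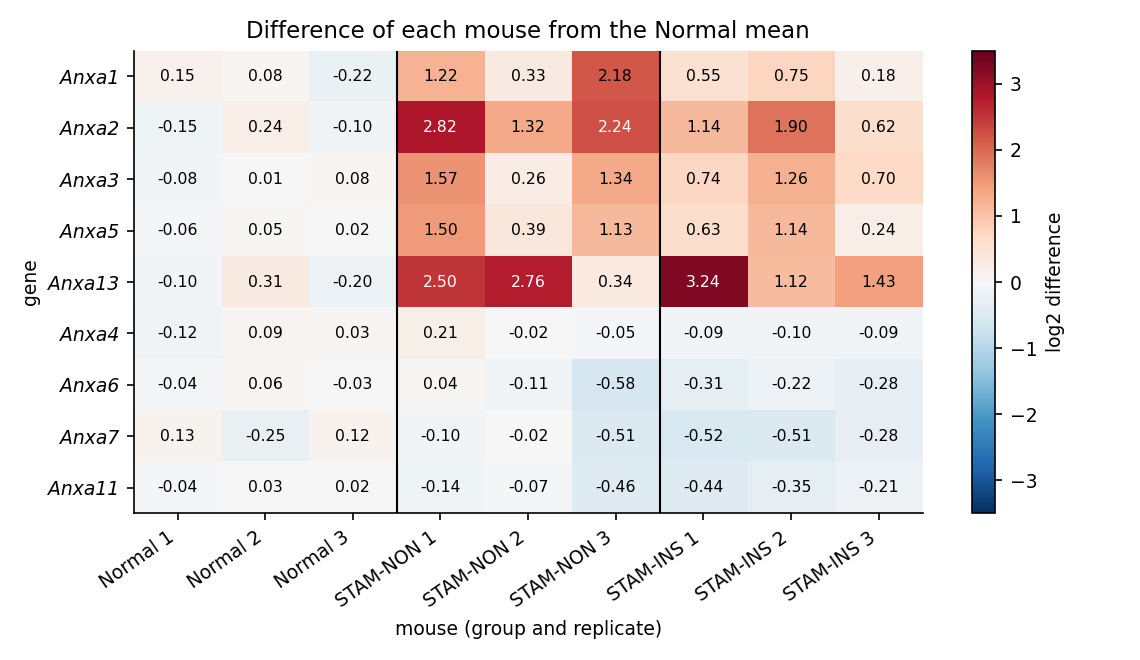
Difference of each mouse (columns, by group and replicate) from the mean of the 3 Normal mice on the log2 scale (color and printed value) for the 9 annexin genes (rows). Anxa1, Anxa2, Anxa3 and Anxa5 are lower in STAM-NON replicate 2 than in replicates 1 and 3, whereas Anxa13 is lowest among the STAM mice in STAM-NON replicate 3.

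Anxa1, Anxa2, Anxa3 and Anxa5 varied together from mouse to mouse, whereas Anxa13 correlated with them at only 0.136 to 0.508. Over the 9 mice, Anxa2 and Anxa5 correlated with r = 0.976, Anxa3 and Anxa5 with 0.963 and Anxa2 and Anxa3 with 0.928, and Anxa1 with these 3 at 0.810 to 0.828. Anxa6, Anxa7 and Anxa11 formed a second group (r = 0.707 to 0.864), and correlated negatively with Anxa1 (-0.559 to -0.700). Of the 36 pairs, 8 were above 0.8 and 15 below 0, with a median of 0.164. These are descriptions: the 9 values of a pair share their arrays, their scaling and the group differences. With the group means removed, over the 6 STAM mice, Anxa2 and Anxa5 stayed at 0.999, Anxa2 and Anxa3 at 0.926 and Anxa7 and Anxa11 at 0.984, Anxa1 stood at 0.616 to 0.760 with Anxa2, Anxa3 and Anxa5, and Anxa13 was below 0 with Anxa1 (-0.658), Anxa3 (-0.455), Anxa5 (-0.250) and Anxa2 (-0.230).

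**Figure D4:**
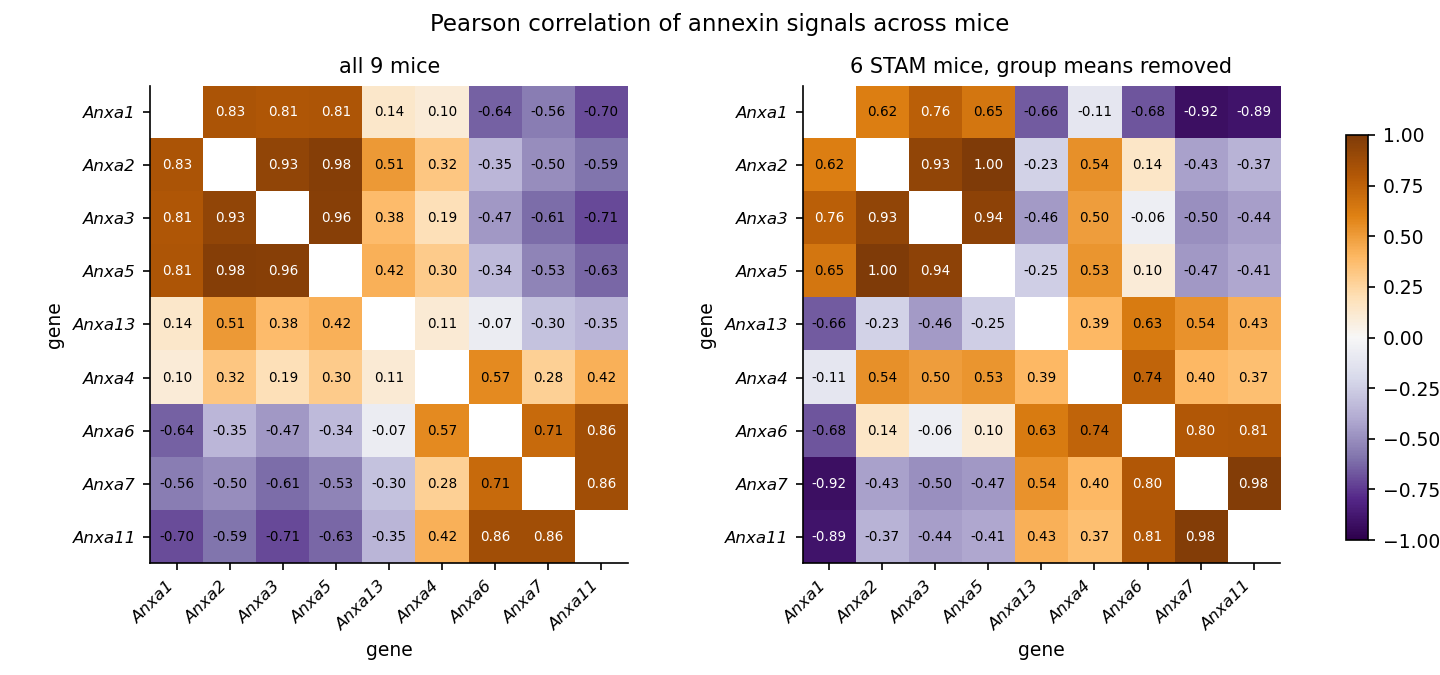
Pearson r of centered log2 signal for each pair of annexin genes, over all 9 mice (left) and over the 6 STAM mice after removing the group means (right). Anxa1, Anxa2, Anxa3 and Anxa5 form one block of high values and Anxa6, Anxa7 and Anxa11 another, and Anxa13 stands apart from the first block.

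Among 13375 other genes, the 5 whose signal followed that of Anxa2 most closely over the 9 mice were Tmsb10 (r = 0.986), an actin-binding thymosin, Ackr1 (0.98), an atypical chemokine receptor, Csrp1 (0.98), a LIM protein of smooth muscle and stellate cells, Ddr1 (0.976), a collagen receptor, and Adam15 (0.976), a metalloprotease with a disintegrin domain. Each was higher in STAM-NON than in Normal, by 1.57, 1.3, 0.97, 2.24 and 0.91 on the log2 scale. A total of 294 genes had an r above 0.9 with Anxa2, over arrays that share the same group differences.

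Promoter sequence is shown for Anxa1, Anxa2 and Anxa5, the annexins that varied together and for which RefSeq sequence was at hand (8 promoters of 6 members matched, with none for Anxa3, Anxa6 and Anxa13). Each is the 250 bases before the start site in GRCm38.p6, read 5′ to 3′ on the strand of the gene: chr19:20390672-20390921 on the minus strand for Anxa1, chr9:69453433-69453682 on the plus strand for Anxa2 and chr3:36475888-36476137 on the minus strand for Anxa5. Capitals mark matches, on either strand, to 7 motifs searched as plain letters: AP-1 (TGANTCA), TEAD (GGAATG), NF-kB (GGGANNNNCC), the Sp1 GC box (GGGCGG), the CCAAT box (CCAAT), the TATA box (TATAAA) and the hypoxia response core (ACGTG).
Anxa1: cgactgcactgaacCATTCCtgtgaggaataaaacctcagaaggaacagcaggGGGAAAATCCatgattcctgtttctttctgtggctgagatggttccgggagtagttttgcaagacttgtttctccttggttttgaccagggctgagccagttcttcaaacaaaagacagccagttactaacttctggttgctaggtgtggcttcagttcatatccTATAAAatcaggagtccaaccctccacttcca
Anxa2: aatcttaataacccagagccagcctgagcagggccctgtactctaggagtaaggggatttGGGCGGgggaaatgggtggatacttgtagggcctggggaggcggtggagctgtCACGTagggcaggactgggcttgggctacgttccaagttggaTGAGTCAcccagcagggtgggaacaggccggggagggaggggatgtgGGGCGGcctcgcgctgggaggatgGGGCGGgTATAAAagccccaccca
Anxa5: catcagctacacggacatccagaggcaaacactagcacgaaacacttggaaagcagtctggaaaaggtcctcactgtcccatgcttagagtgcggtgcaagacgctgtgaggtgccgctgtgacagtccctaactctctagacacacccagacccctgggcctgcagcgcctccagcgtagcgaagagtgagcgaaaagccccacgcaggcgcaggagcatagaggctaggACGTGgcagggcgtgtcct

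The Anxa2 window held an AP-1 match (TGAGTCA) that began 95 bases before the start, 3 GC boxes at 190, 48 and 24 bases, a TATA box at 17 bases and a hypoxia response core on the other strand at 137 bases. The Anxa1 window held a TATA box at 32 bases, an NF-kB match at 197 bases and a TEAD match on the other strand at 236 bases. The Anxa5 window held a hypoxia response core at 19 bases and no match to the other motifs. None of the marked matches overlapped another. Among 32851 mouse promoter windows of this length, 6.75% held the AP-1 letters, 12.6% TEAD, 17.6% NF-kB, 32.7% the GC box, 33.8% CCAAT, 12.4% TATAAA and 16.6% ACGTG. The 3 windows had no motif that all of them shared, and a match describes letters only.

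Annexins work with S100 proteins, whose dimers join annexin tails and so link membranes. Of 8 listed ligands and scaffolds, 4 were higher in STAM-NON than in Normal (S100a11, S100a6, S100a4 and Ahnak) and none was lower. The background was 6.30% of tested probes higher. In STAM-INS against Normal 3 were higher, beside 5.16%. At 1 probe per gene, 1054 and 823 of 13386 tested genes were higher in these 2 comparisons. This and the following lists were chosen with earlier results of these data known, so their counts are no test of enrichment. Ahnak, a scaffold of the Anxa2 and S100a10 complex, passed in STAM-NON on 1 of its 4 tested probes, the brightest (0.43, adjusted p = 0.0305, limma), while the other probes gave 0.63, 1.18 and -0.29 without passing. S100a11, a partner of Anxa1, rose from -0.96, -0.91 and -1.10 in Normal to 2.44, 1.58 and 1.72 in STAM-NON, a difference of 2.90 (SE 0.24; adjusted p = 0.00185, limma), with no overlap. Its STAM-INS values of 0.93, 1.19 and 0.60 lay below all STAM-NON mice and above all Normal mice. The difference of S100a11 between STAM-INS and STAM-NON was -1.01 (95% confidence interval -1.55 to -0.46; adjusted p = 0.333, limma). S100a4 and S100a6, which bind Anxa2, were higher by 2.57 (adjusted p = 0.00704) and 2.14 (adjusted p = 0.0193) in STAM-NON by limma. A dimmer probe of S100a4 gave a smaller difference of 1.45 (adjusted p = 0.0178, limma).

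S100a10, the partner of Anxa2 at the plasma membrane, did not pass the threshold. Its signal was 4.61, 4.73 and 3.78 in STAM-NON, 4.19, 4.87 and 4.43 in STAM-INS and 3.43, 4.28 and 3.84 in Normal, and the 3 groups overlapped. The difference of STAM-NON from Normal was 0.52 (SE 0.31, 95% confidence interval -0.19 to 1.24; adjusted p = 0.255, limma). STAM-NON replicate 3, in which Anxa2 was 5.11, had the lowest S100a10 value of the STAM mice.

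**Figure D5:**
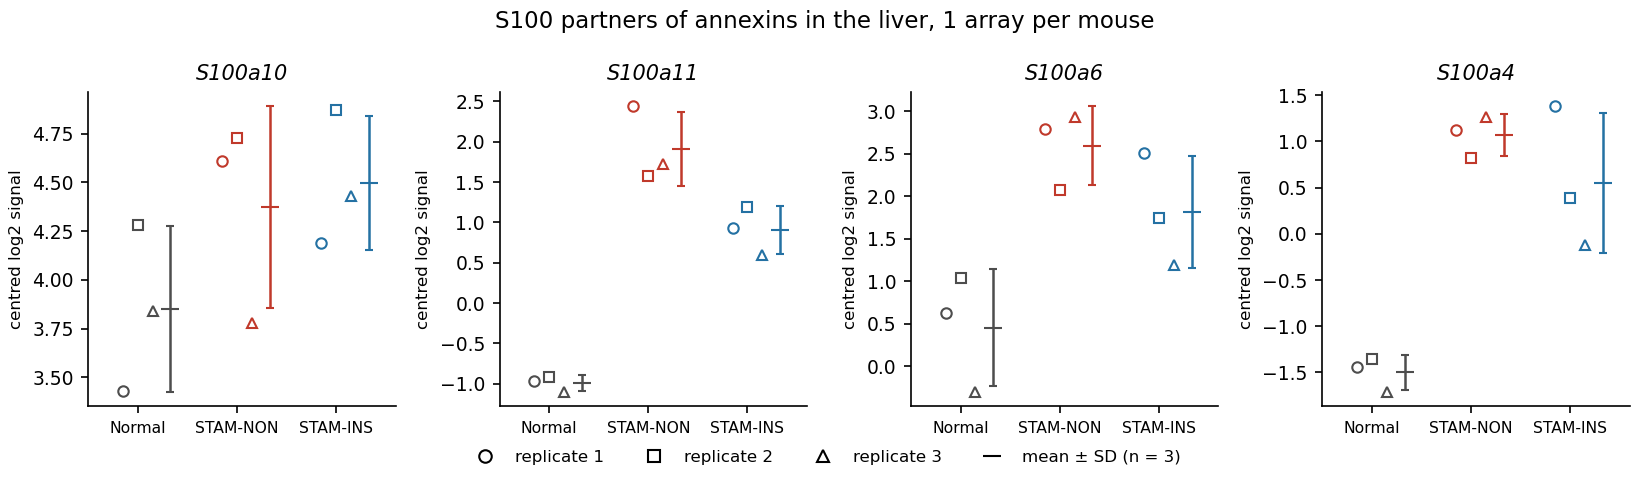
Centered log2 signal (y axis, a different range in each panel) of S100a10, S100a11, S100a6 and S100a4 in Normal, STAM-NON and STAM-INS livers; each symbol is 1 mouse and the bar the mean with its SD (n = 3). S100a11 shows 3 separate groups with STAM-INS between the others, and S100a10 overlaps between all groups.

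In the plasminogen system that Anxa2 recruits, 2 of 6 tested genes of 7 listed rose in STAM-NON against Normal and none fell, beside the background of 6.30% higher. They were Plat, the tissue plasminogen activator, and Plaur, the urokinase receptor. For Plat no Normal array gave a signal well above background, and STAM-NON stood at least 2.84-fold higher. Plat entered the test through its STAM-NON arrays alone. Its call (adjusted p = 0.0183, limma) thus follows in part from the filter and is not support. Plaur differed by 2.01 (SE 0.56; adjusted p = 0.0454, limma). Of the 7 genes around Anxa1 (its formyl peptide receptors, the glucocorticoid receptor and its targets, and a phospholipase) 1 rose, Pla2g4a, the cytosolic phospholipase A2 that Anxa1 inhibits, at 1.32 (adjusted p = 0.0267, limma), a single call beside the same 6.30%. Of 9 genes of phosphatidylserine exposure and clearance, the lipid that Anxa5 binds, 4 rose in STAM-NON, beside 6.30%. The largest differences were those of the scramblase Ano6 at 1.39 (adjusted p = 0.0129), the bridging protein Mfge8 at 1.28 (adjusted p = 0.0479) and Gas6, the ligand of the Axl family of receptors, at 1.19 (adjusted p = 0.0365), by limma, and Axl itself was the other.

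None of 6 membrane repair genes passed by limma in STAM-NON against Normal (median difference -0.20, with 3 at an unadjusted p under 0.05). In STAM-INS against Normal, 1 of the plasminogen genes (Plat), Pla2g4a, and 2 of the phosphatidylserine genes (Ano6 and Gas6) were higher, beside 5.16%. There Plat was at least 2.15-fold higher (adjusted p = 0.0280, limma), and was well above background on 2 of 3 STAM-INS arrays and on no Normal array. In a fit of only the 2 groups compared Plat did not enter the test. With normexp its difference was 0.48 (adjusted p = 0.120, limma). In STAM-INS against Normal, Pla2g4a passed the threshold in 4 of 18 alternative settings, Plat in 9 of 17, Gas6 in 13 of 18 and Ano6 in 17 of 18. In STAM-INS against STAM-NON none of these lists held a gene past the threshold by limma (3 of 36 tested genes at an unadjusted p under 0.05). Under 18 alternative settings the count of ligands and scaffolds past the threshold in STAM-NON ran from 0 to 4, that of plasminogen genes from 0 to 2, that of the genes around Anxa1 from 0 to 4 and that of the phosphatidylserine genes from 0 to 5. Gene by gene in STAM-NON against Normal, Plaur and Mfge8 passed in 6 of these 18 settings, Gas6 in 8 and Pla2g4a in 10. S100a6 passed in 12, Plat in 13, Ano6 in 16, and S100a11 and S100a4 in 17. Of the annexins outside the 9, Anxa8 and Anxa9 differed by 0.60 (adjusted p = 0.375) and 0.77 (adjusted p = 0.0782) in STAM-NON by limma, and Anxa10 was too dim to be tested.

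Markers of some other liver cells also differed between the groups, and their part in these results was not tested. Marker lists are given as the sum of their signals relative to the 75th percentile spot of the array, in which the brightest probes weigh most, so that a sum serves only to follow 1 list across the arrays. Neutrophil markers (5 of 6 matched) summed to 5.65 to 192 in STAM-NON, 6.91 to 25.1 in STAM-INS and 2.86 to 3.41 in Normal, where Mpo was not above background on any array. These sums rest largely on S100a9. S100a8 and S100a9 lay above all Normal mice in every STAM-NON mouse. Camp was within or below the Normal range (-0.68 to -0.50) in STAM-NON replicates 1 and 2 (-0.66 and -0.73). Ngp was not well above background in STAM-NON replicate 2. None of the 4 tested neutrophil markers passed the threshold in any comparison. The value of 192 was that of STAM-NON replicate 3 alone, the mouse with the highest Anxa1, while replicates 1 and 2 stood at 11.8 and 5.65. Macrophage markers (5 of 6 matched) summed to 77.7 to 125, 70.7 to 140 and 47.0 to 66.5 in the 3 groups in the same order, with Clec4f and Cd14 past the threshold in both STAM groups. STAM-INS replicate 2, the highest STAM-INS mouse for Anxa1, Anxa2, Anxa3 and Anxa5, also had the highest macrophage and neutrophil sums of that group, and STAM-NON replicate 2, the lowest STAM-NON mouse for the same genes, had the lowest of its group. Other mice did not match. STAM-INS replicate 3, lowest of its group for these genes, had a macrophage sum of 97.4, above replicate 1 (70.7), though the lowest neutrophil sum. STAM-NON replicate 1, highest for Anxa2, Anxa3 and Anxa5, was below STAM-NON replicate 3 in both sums. STAM-NON replicate 2 also had the lowest stellate and endothelial sums of its group.

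Stellate cell and fibroblast markers (6 of 6) summed to 123, 76.9 and 121 in STAM-NON replicates 1, 2 and 3, 61.4 to 71.5 in STAM-INS and 67.4 to 75.4 in Normal, with none past the threshold, and these sums rest largely on Dcn. The mean log2 signal of the 6 markers ran from 0.82 to 1.77 in STAM-NON, 0.51 to 1.16 in STAM-INS and 0.20 to 0.63 in Normal, and their median difference from Normal was 0.76 in STAM-NON and 0.32 in STAM-INS. Bile duct markers (5 of 5) summed to 1.32 to 2.14, 1.65 to 1.82 and 0.744 to 1.43, with Krt7 and Sox9 past the threshold in STAM-NON and Sox9 also in STAM-INS against Normal. In Normal, Krt7 was well above background in replicate 2 only, so it entered the test through its STAM arrays alone. Its call thus follows in part from the filter and is not support. Cftr was not higher in STAM-NON, at -2.24 to -2.06 against -2.21 to -1.48 in Normal, and did not pass. Endothelial sums overlapped between groups (28.5 to 48.1, 22.7 to 38.3 and 30.8 to 35.8), with Lyve1 past the threshold in STAM-NON. Kdr went the other way without passing the threshold. It ran from 3.49 to 3.83 in STAM-NON and 3.48 to 3.59 in STAM-INS, below all Normal mice (3.87 to 3.94). Lymphocyte sums (2.51 to 3.90, 2.87 to 4.79 and 2.89 to 3.47) overlapped as well. Hepatocyte sums were lower in STAM (3360 to 4370 and 3850 to 4420 against 5020 to 5330), with Cps1 past the threshold in both STAM groups. These sums rest largely on Alb and Serpina1c. Apoa1 went the other way in STAM-INS without passing the threshold, at 8.36, 8.09 and 8.29, and overlapped with Normal. In STAM-NON, Apoa1 was below all Normal mice in replicates 1 and 2 (7.21 and 7.68) and above them in replicate 3 (8.5). Of the pancreas markers, Prss1 and Cpa1 were not above background on any array and Cela1 was higher in both STAM groups. Ins2, well above background on every array, was not higher in STAM. It ran from -1.89 to -1.68 in STAM-NON, -1.69 to -1.61 in STAM-INS and -1.72 to -1.48 in Normal. Pancreas sums were 0.637 to 1.71, 0.644 to 0.862 and 0.436 to 0.521. Adipose markers (3 of 3) summed to 0.0778 to 0.581, 0.0533 to 0.0680 and 0.0433 to 0.0782. Lep was above background on no array, Adipoq on those of STAM-NON replicates 1 and 3 and STAM-INS replicate 1, and Plin1 on that of STAM-NON replicate 1. STAM-NON replicate 1, the highest mouse for Anxa2, Anxa3 and Anxa5, had the highest adipose and pancreas sums (0.581 and 1.71), with Adipoq at -1.33 and Plin1 at -2.53. The pancreas sum of this mouse rested largely on Cela1 (0.50), while its Ins2 (-1.89) was the lowest of all arrays.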

How the data were processed

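Each array was assigned to its group by its label. The authors deposited 9 one-color scanner files (Feature Extraction 11.5.1.1), whose values are background-subtracted linear intensities per spot, without normalization between arrays per the file headers. The labels and the study's methods name different RNA extraction kits. Control spots and outlier-flagged spots (161 to 217 per array) were left out, spots of 1 probe were averaged, and log2 values were centered on the 75th percentile of each array. Transcript accessions were matched to RefSeq names (GRCm38.p6), which named 27656 of 55681 probes. The array design was built on mm9, so gene coordinates are not given. Probes with at least 0.5 of their spots well above background on all arrays of 1 group, and a value on every array, were tested (26278). The 3 comparisons used the packages R 4.3.3 and limma 3.58.1 in a two-sided test (lmFit, eBayes) on all 9 arrays, with 6 residual degrees of freedom, Benjamini-Hochberg adjustment and a threshold of 0.05. The code was tested on simulated data.

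A gene is represented by its probe with the highest mean signal, and every annexin probe is named. Of each list of related genes, up to 3 past the threshold with the largest differences are given, with S100a10 and S100a11 in any case. The 5 genes most like Anxa2 were taken by Pearson r. The annexins and the lists were chosen with earlier results of these data known. Normexp was run with an offset of 50 on median spot intensities, since the deposited files used here held no mean intensities. P-values measure the spread among these mice only.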

Additional observations from a re-analysis of the deposited data

How the results depend on the processing

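The 27 annexin differences were recomputed under 19 alternatives (513 values), of which 478 kept their direction and side of the threshold, 17 turned sign, 12 came to pass the threshold and 6 no longer passed it. Those 6 were all Anxa2 in STAM-NON against Normal, which passed in 13 of 19 alternatives with a difference of 1.78 to 2.53. The cause of the changes was not tested.

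Signs turned as follows. In STAM-NON against Normal, Anxa6 was 0.05 after quantile normalization and 0.10 centered on the E1A spike-ins, where Anxa7 was 0.10 and Anxa11 0.08; Anxa4 was -0.04 with normexp; Anxa13, at 1.87 otherwise, was -0.09 with slide row as a block. Leaving out mice, Anxa4 ran from -0.04 to 0.09, without STAM-NON replicate 1 (-0.04) or Normal replicate 1 (-0.02). In STAM-INS against Normal, Anxa4 was 0.04 after quantile normalization, 0.03 with the percentile over detected probes and 0.07 on the spike-ins. In STAM-INS against STAM-NON, Anxa13 was -0.09 on the spike-ins and ran from -0.70 (without STAM-NON replicate 3) to 0.51 leaving out 1 mouse, with -0.59 without STAM-INS replicate 1; Anxa3 ran from -0.55 to 0.10 and Anxa6 from -0.24 to 0.07, both highest without STAM-NON replicate 1, and Anxa11 was 0.10 over the mean of its probes.

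In STAM-NON against Normal the number of annexins past the threshold was 3 with normexp, 3 with trend and robust, 0 with no filter, 0 with slide row as a block and 0 to 4 leaving out 1 mouse. In STAM-INS against Normal it was 2 with only the 2 groups compared and 0 to 1 leaving out 1 mouse (1 without STAM-NON replicate 2, Anxa3, and 1 without STAM-NON replicate 3, Anxa13). Over all probes, STAM-NON against Normal, STAM-INS against STAM-NON and STAM-INS against Normal gave 250, 7 and 572 calls with no filter, 15, 13 and 2157 with slide row as a block, and 940 to 5817, 10 to 105 and 1038 to 4326 leaving out 1 mouse. With only the 2 groups compared the former pair gave 2472 and 8, and STAM-INS against Normal gave 2136 on the spike-ins. The split of calls in STAM-NON against Normal was 1655 higher and 2565 lower, against 2645 and 452 on the spike-ins, 2077 and 1064 with the percentile over detected probes (median of all probes 0.03), 1538 and 1428 after quantile normalization and 1313 and 3387 with normexp.

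Replicate numbers did not pair the mice: deviations of same-numbered mice correlated with r from -0.29 to 0.15, and those of other pairs from -0.19 to 0.28. With the replicate number as a block, calls over all probes were 2016, 6 and 1872 in the 3 comparisons, and 1, 0 and 0 annexins passed.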
